A study of Coccomyxa subellipsoidea C-169 with 6 samples.

Results

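The data described here concern 4 heat shock protein genes of the unicellular green alga Coccomyxa subellipsoidea C-169, out of 9490 genes listed in the count files. COCSUDRAFT_26106 and COCSUDRAFT_67628 carry the product name Heat shock protein 70 (HSP70), COCSUDRAFT_54922 is named an HSP90-domain-containing protein, and COCSUDRAFT_31935 is named an HSP20-like chaperone. These genes were chosen on their measured counts, on how they varied across libraries and on how they differed between groups. Their values below are therefore a description, and nothing is read from a call among them. Messenger RNA was sequenced from 3 cultures labelled Overexpressor CsubMADS1 OX (OX-labelled) and 3 wild type cultures (WT), described as biological replicates, all in stationary phase and harvested 3 hours before the dark phase. The labels give neither the promoter of the transgene nor how many transformed lines the OX-labelled cultures represent, so a trait of 1 line and an effect of the labelled gene cannot be told apart.

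Heat shock proteins are molecular chaperones. HSP70 binds unfolded stretches of a protein and releases them in a cycle driven by ATP, with J domain proteins delivering clients and starting hydrolysis and nucleotide exchange factors resetting it. HSP90 takes over partly folded clients such as kinases and receptors, HSP20 proteins hold unfolding proteins without using ATP, and HSP100 proteins of the ClpB type pull proteins out of aggregates together with HSP70. In plants and green algae their genes are known to be induced by heat, light and oxidative stress. The name HSP20-like is also given to the fold shared with the HSP90 co-chaperone p23, so it does not settle which kind of protein COCSUDRAFT_31935 encodes.

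Library totals ran from 3862791 to 5336375 counts in the OX-labelled libraries and from 3771499 to 4953851 counts in WT. Among 8575 genes tested with edgeR's quasi-likelihood test, OX-labelled cultures had 1337 genes (15.6%) called higher and 770 (8.98%) called lower at a Benjamini-Hochberg adjusted p under 0.05. With library size as the only scaling, the calls were 1140 higher and 995 lower. Leaving out 1 library moved the lower calls to between 313 (without WT replicate 1) and 1232 (without OX replicate 3). Fits without OX replicate 1, WT replicate 2 and WT replicate 3 gave 414, 414 and 385 lower calls, and the higher calls were 737, 875 and 865 without WT replicates 1, 2 and 3. The gene with a MADS-box product name, COCSUDRAFT_67545, had 68.5, 59.0 and 54.8 CPM (counts scaled to the library total, with TMM factors) in the OX-labelled libraries, against 95.3, 80.2 and 85.0 CPM in WT. These values run against the overexpression label (edgeR adjusted p = 0.0535, and 0.0295 to 0.168 over 12 other settings), and every direction below is that of the labels. All 25 listed genes for chlorophyll a-b binding proteins and the Rubisco small chain, used as markers of a green alga culture, were detected. Their summed CPM was 30620, 25760 and 25700 in the OX-labelled libraries, against 9550, 9995 and 9255 in WT. The second principal component (19.6% of the variance) set OX replicate 3 at -34.9 against 14.2 and 20.6 for OX replicates 1 and 2.

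Together the 4 genes took 0.622 ± 0.243% of all counts in the OX-labelled libraries and 1.08 ± 0.121% in WT (SD, n = 3 each). The lowest share was 0.431% in OX replicate 1 (95% exact interval 0.426 to 0.437%), and OX replicate 2 had 0.896% (0.887 to 0.904%). In WT the shares ran from 0.979% (0.969 to 0.989%) to 1.21% (1.20 to 1.22%). All OX-labelled shares were below all WT shares. In bulk RNA, fewer cells carrying a transcript and less transcript per cell cannot be told apart, and a share of counts also depends on all other genes.

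COCSUDRAFT_26106, an HSP70, had 2044, 3792 and 2664 CPM in OX-labelled replicates 1 to 3, against 4897, 4209 and 4203 CPM in WT replicates 1 to 3. The groups did not overlap, and OX replicate 2 lay nearest to WT. Means were 2833 ± 886 CPM in the OX-labelled libraries and 4436 ± 399 CPM in WT (SD, n = 3 each), a log2 difference of -0.65 (SE 0.22).

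COCSUDRAFT_67628, the other HSP70 of the 4, had 137, 383 and 92.5 CPM in the OX-labelled libraries, against 843, 758 and 765 CPM in WT. It had the widest separation of the 4 genes, and again OX replicate 2 was the highest of its group. The log2 difference was -1.95 (SE 0.44), or -2.78 without OX replicate 2. Its lowest raw count was 368, in OX replicate 3, with a counting interval of 331 to 408.

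COCSUDRAFT_54922, the HSP90, had 1572, 3269 and 1975 CPM in the OX-labelled libraries, against 3193, 2674 and 2533 CPM in WT. OX replicate 2 was above every WT library, while the other OX-labelled libraries were below them all, so the groups overlapped through that 1 library. Means were 2272 ± 886 CPM in the OX-labelled libraries and 2799.8 ± 347 CPM in WT (SD, n = 3 each). The log2 difference was -0.30 (SE 0.25) with all libraries, -0.66 without OX replicate 2 and -0.10 without OX replicate 1. The SD of log2 CPM among the OX-labelled libraries was 0.54.

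COCSUDRAFT_31935, the HSP20-like gene, had 760, 2034 and 516 CPM in the OX-labelled libraries, against 3158, 2591 and 1839 CPM in WT. OX replicate 2 lay above WT replicate 3, which was the lowest WT library for this gene, and the groups overlapped there. Means were 1104 ± 815 CPM in the OX-labelled libraries and 2529 ± 662 CPM in WT (SD, n = 3 each). The log2 difference was -1.20 (SE 0.44), or -1.99 without OX replicate 2.

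**Figure D1:**
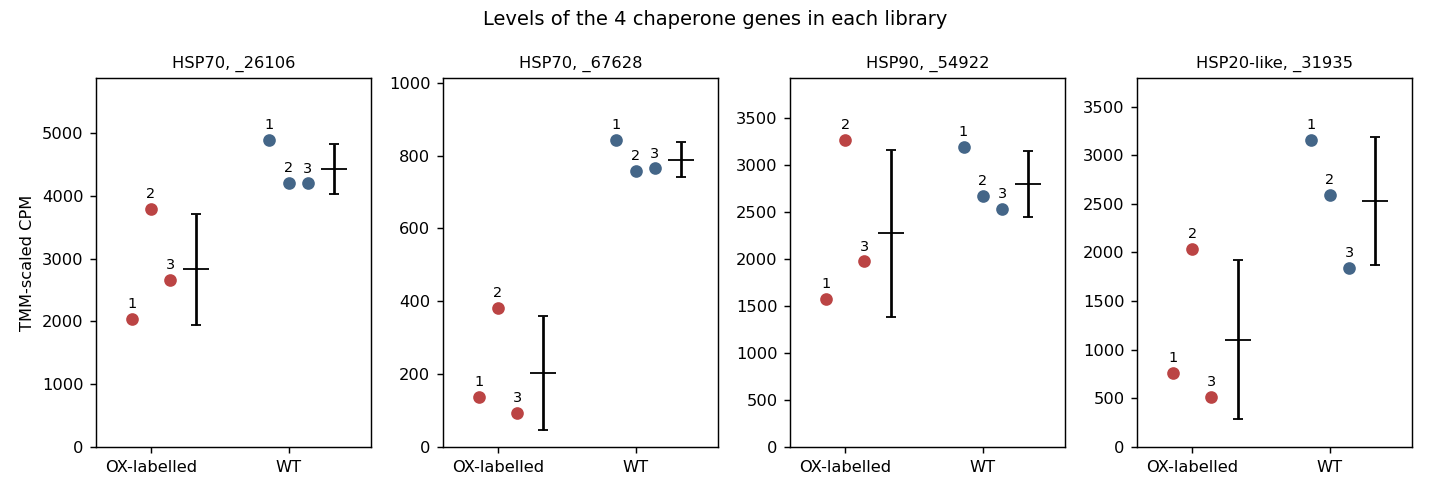
TMM-scaled CPM of each of the 4 genes (panels, named by the end of the locus tag) in the OX-labelled libraries (red) and WT (blue), with replicate numbers above the points and bars for the mean and SD over 3 libraries. Each vertical axis starts at 0 and has its own scale; OX replicate 2 is the highest OX-labelled library in every panel, and the groups are apart for COCSUDRAFT_26106 and COCSUDRAFT_67628.

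Counted over the 4 genes, 2 had no overlap between groups, both lower in the OX-labelled libraries, where 19.8% of all tested genes lay wholly below WT and 23.1% wholly above it. COCSUDRAFT_67628 alone was called lower, beside 8.98% of all tested genes. Nothing is read from these shares, since the difference between groups entered the choice of the genes. The log2 difference of each of the 4 genes stayed below 0 in all 12 other settings tried. It ranged from -0.92 to -0.46 for COCSUDRAFT_26106, from -2.78 to -1.60 for COCSUDRAFT_67628, from -0.66 to -0.10 for COCSUDRAFT_54922 and from -1.99 to -0.86 for COCSUDRAFT_31935.

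Each of the 4 genes had a wider range among the OX-labelled cultures than among the WT cultures. The share of all tested genes with this order was not counted, but wider spread in the OX-labelled group was not particular to these genes. An SD of log2 CPM of 0.176 (COCSUDRAFT_46408, an SHSP domain gene) stood at percentile 24.3 of all tested genes within the OX-labelled group. Within WT, an SD of 0.175 (COCSUDRAFT_54922) stood at percentile 48.4. The 4 genes were also chosen partly on their variation. The highest OX-labelled library held 1.86 times the lowest for COCSUDRAFT_26106, 4.14 times for COCSUDRAFT_67628, 2.08 times for COCSUDRAFT_54922 and 3.94 times for COCSUDRAFT_31935. In WT the same ratios were 1.16, 1.11, 1.26 and 1.72. Ranked by the SD of log2 CPM within the OX-labelled group, COCSUDRAFT_67628 stood at percentile 99.0 and COCSUDRAFT_31935 at 98.8 of all tested genes, with COCSUDRAFT_54922 at 86.9 and COCSUDRAFT_26106 at 77.7. Within WT, COCSUDRAFT_31935 stood at percentile 91.6 and COCSUDRAFT_67628 at 17.1, so the HSP20-like gene was variable in both groups and this HSP70 in the OX-labelled group.

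All 4 genes were highest in OX replicate 2 among the OX-labelled libraries, as were 31.9% of all tested genes, and all 4 were highest in WT replicate 1 within WT, as were 34.8%. They parted on which OX-labelled library was lowest. COCSUDRAFT_26106 and COCSUDRAFT_54922 were lowest in OX replicate 1, an order (OX replicate 2 highest, OX replicate 1 lowest) found in 11.6% of tested genes. COCSUDRAFT_67628 and COCSUDRAFT_31935 were lowest in OX replicate 3, an order found in 20.3% of tested genes. Relative to the WT mean, OX replicate 2 was at -0.22 for COCSUDRAFT_26106, -1.04 for COCSUDRAFT_67628, 0.23 for COCSUDRAFT_54922 and -0.28 for COCSUDRAFT_31935 on the log2 CPM scale. OX replicate 3 was at -0.73, -3.08, -0.50 and -2.26 for the same genes. OX replicate 2 had 4721278 counts and a TMM factor of 0.945, between or near the values of OX replicate 1 (5336375 and 0.956) and OX replicate 3 (3862791 and 1.03), and the part of depth in these orders was not tested.

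**Figure D2:**
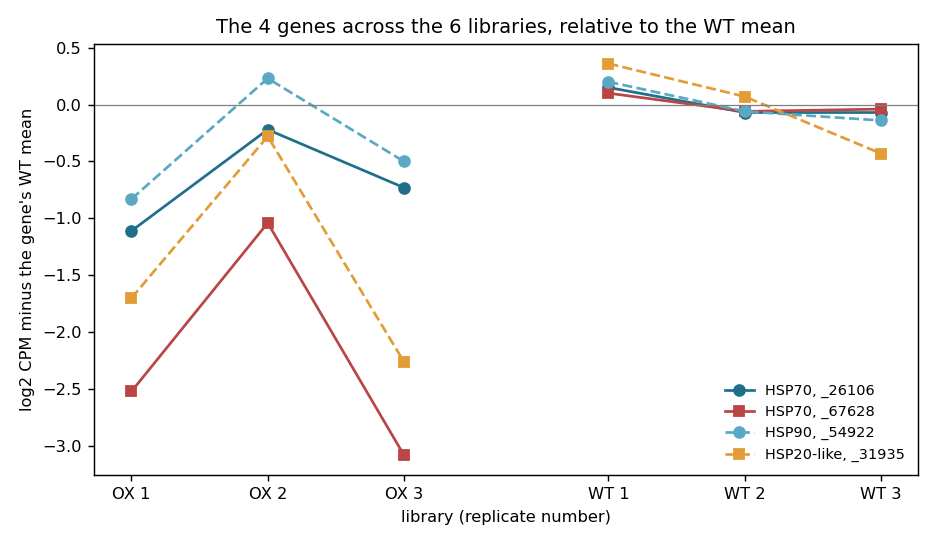
Log2 CPM of the 4 genes in each library, minus the mean of the gene over the WT libraries, for the OX-labelled libraries (left) and WT (right); lines only join points of 1 gene, since replicates have no order. All 4 genes peak in OX replicate 2, and COCSUDRAFT_67628 and COCSUDRAFT_31935 (squares) spread further than COCSUDRAFT_26106 and COCSUDRAFT_54922 (circles).

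Ratios of raw counts within 1 library do not depend on the scaling between libraries, and are given here from the same counts as a further description. COCSUDRAFT_67628 over COCSUDRAFT_31935 was 0.180, 0.188 and 0.179 in OX-labelled replicates 1 to 3, against 0.267, 0.292 and 0.416 in WT. The ratio thus varied by 1.05 times among the OX-labelled libraries although each gene varied about 4 times there, and it was lower than in every WT library. In WT it varied by 1.56 times. The HSP90 over an HSP70, COCSUDRAFT_54922 over COCSUDRAFT_26106, was 0.769, 0.862 and 0.742 in the OX-labelled libraries, against 0.652, 0.635 and 0.603 in WT. It varied by 1.16 times among the OX-labelled libraries and by 1.08 times in WT, and was higher than in every WT library.

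Ratios across these pairs varied more among the OX-labelled libraries, and WT had no such order. The HSP70 ratio, COCSUDRAFT_67628 over COCSUDRAFT_26106, was 0.0671, 0.101 and 0.0347 in the OX-labelled libraries, against 0.172, 0.180 and 0.182 in WT. It varied by 2.91 times among the OX-labelled libraries and by 1.06 times in WT, with no overlap between the groups. COCSUDRAFT_31935 over COCSUDRAFT_26106 was 0.372, 0.536 and 0.194 in the OX-labelled libraries, against 0.645, 0.616 and 0.437 in WT, and here OX replicate 2 overlapped WT.

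**Figure D3:**
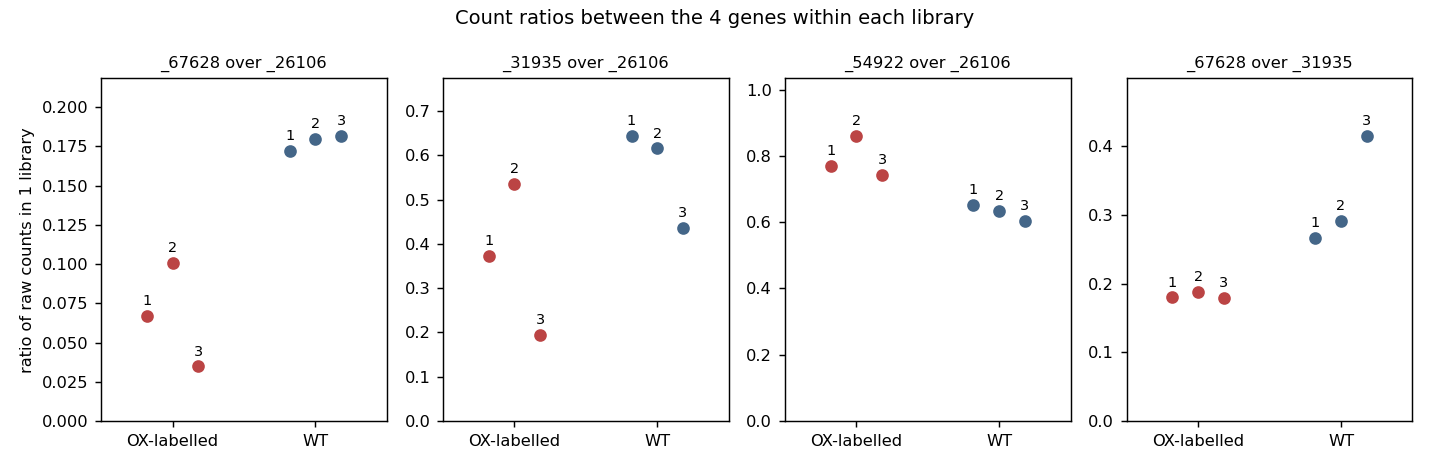
Ratio of raw counts of 1 gene over another within each library (panels, named by the ends of the locus tags), for OX-labelled libraries (red) and WT (blue), with replicate numbers above the points and axes from 0. The ratio of COCSUDRAFT_67628 over COCSUDRAFT_31935 lies between 0.179 and 0.188 in all 3 OX-labelled libraries, while the ratio of COCSUDRAFT_67628 over COCSUDRAFT_26106 lies between 0.0347 and 0.101.

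Genes with the most similar profiles were found by the root mean square difference of log2 CPM over the 6 libraries, each gene centred on its own mean. Of 8574 other tested genes, COCSUDRAFT_31935 was number 7 in nearness to COCSUDRAFT_67628 and COCSUDRAFT_67628 number 40 in nearness to COCSUDRAFT_31935, at a distance of 0.447. COCSUDRAFT_26106 was number 64 in nearness to COCSUDRAFT_54922 and COCSUDRAFT_54922 number 113 in nearness to COCSUDRAFT_26106, at a distance of 0.179. The nearest to COCSUDRAFT_67628 were COCSUDRAFT_43836, named Phosphatases II (0.247), and COCSUDRAFT_36336, a metallo-dependent phosphatase (0.323), with 3 uncharacterized genes after them. COCSUDRAFT_43836 had 32.2, 65.2 and 14.3 CPM in the OX-labelled libraries, against 203, 176 and 179 CPM in WT. The nearest to COCSUDRAFT_31935 was the uncharacterized gene COCSUDRAFT_64411 (0.240), which was also the third nearest to COCSUDRAFT_67628 (0.343). The next was COCSUDRAFT_53588 (0.258), a ClpB chaperone of the HSP100 family. Its 5 nearest also held the heme oxygenase-like gene COCSUDRAFT_62659 (0.314) and 2 more uncharacterized genes, COCSUDRAFT_32863 (0.266) and COCSUDRAFT_63786 (0.290).

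The nearest profiles of the other pair held no heat shock names. For COCSUDRAFT_26106 they were 2 uncharacterized genes and COCSUDRAFT_61527 with a Kri1 C-terminal domain (0.081), COCSUDRAFT_58700 with an RRM domain known for RNA binding (0.083) and COCSUDRAFT_37834, a tRNA-modifying enzyme of the MiaB type (0.085). For COCSUDRAFT_54922 they were the RNA helicase COCSUDRAFT_54896 (0.068), the methionine aminopeptidase COCSUDRAFT_18342 (0.077), the mitochondrial carrier COCSUDRAFT_47197 (0.102) and 2 uncharacterized genes. COCSUDRAFT_54896 had 173, 320 and 221 CPM in the OX-labelled libraries, against 349, 280 and 281 CPM in WT. All these distances describe 6 libraries that share their scaling and their group difference.

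The other genes with heat shock family names were read from the fit over all genes. Of 17 listed, 16 were tested, 6 were called lower, 0 higher and 10 did not pass, where 8.98% of all tested genes were lower and 15.6% higher. Their median log2 difference was -0.68, against 0.00 over all tested genes, and 9 lay wholly below WT and 0 wholly above it, as did 19.8% and 23.1% of all tested genes. There were 3 lower calls when OX replicate 1 was left out and 8 when OX replicate 3 was. In edgeR 9 were lower and 0 higher at an unadjusted p under 0.05, where 1398 and 1852 of all 8575 tested genes were, and 0 were called higher in any of the 12 other settings, DESeq2 and limma-voom included. OX replicate 2 was the highest OX-labelled library for 9 of the 16, as for 31.9% of all tested genes.

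Among 6 other tested HSP70 genes, 2 were called lower and 4 did not pass, where 8.98% of all tested genes were lower and 15.6% higher. The median log2 difference of these 6 was -0.29. COCSUDRAFT_31779, named Heat shock protein 70E, had 645, 1288 and 791 CPM in the OX-labelled libraries, against 2277, 1834 and 1742 CPM in WT, and was lower by a log2 difference of -1.10 (SE 0.25, edgeR adjusted p = 0.00796). COCSUDRAFT_29413 had 660, 1114 and 451 CPM in the OX-labelled libraries, against 1629, 1469 and 1411 CPM in WT (-1.02, SE 0.28, edgeR adjusted p = 0.0192). Its call was lost without OX replicate 1 (edgeR adjusted p = 0.0823) and without WT replicate 1 (0.0628), with 0.00161 to 0.0823 over its 12 other settings. Both genes were again highest in OX replicate 2 within their group.

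COCSUDRAFT_52952, another HSP70, had values on the other side: 2098, 3204 and 2852 CPM in the OX-labelled libraries, against 2423, 1976 and 1985.5 CPM in WT (0.35, SE 0.20, edgeR adjusted p = 0.217). Its raw counts were 1.03, 0.845 and 1.07 times those of COCSUDRAFT_26106 in the OX-labelled libraries, against 0.495, 0.469 and 0.472 times in WT. The ratio of these HSP70 genes was thus higher in every OX-labelled library than in every WT library. It takes in the group difference of COCSUDRAFT_26106, which entered the choice of that gene, while COCSUDRAFT_52952 on its own overlapped WT. The 20 nearest tested genes around COCSUDRAFT_52952 had a median log2 difference of 1.01, and 12 of them were called higher and 0 lower (15.6% and 8.98% over all tested genes), so it lies among genes with larger differences than its own. The HSP70-domain gene COCSUDRAFT_54009 had 67.9, 84.3 and 104 CPM in the OX-labelled libraries, against 66.2, 72.9 and 75.6 CPM in WT (edgeR adjusted p = 0.364). COCSUDRAFT_26106 and COCSUDRAFT_67628 held 40.0 ± 1.97% of all HSP70-named counts in the OX-labelled libraries and 47.9 ± 0.702% in WT (SD, n = 3 each). Nothing is read from this share either, since it rests on the same choice of genes.

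Both other HSP90 genes lay wholly below WT, as did 19.8% of all tested genes, with 23.1% wholly above it. COCSUDRAFT_19714 had 153, 353 and 188 CPM in the OX-labelled libraries, against 551, 424 and 504 CPM in WT (-1.09, SE 0.28, edgeR adjusted p = 0.0141). Its call was lost without OX replicate 1 (edgeR adjusted p = 0.0590) and without WT replicate 1 (0.0533), with 0.000709 to 0.0590 over its 12 other settings. COCSUDRAFT_26572 had 377, 512 and 476 CPM in the OX-labelled libraries, against 598, 624 and 678 CPM in WT, and did not pass (-0.48, SE 0.18, edgeR adjusted p = 0.0733). It passed without OX replicate 3 (edgeR adjusted p = 0.0292), with library size only (0.0441) and by the DESeq2 Wald test (0.0432), with 0.0292 to 0.204 over its 12 other settings. COCSUDRAFT_54922 held 76.2 ± 2.48% of HSP90-named counts in the OX-labelled libraries and 71.2 ± 2.72% in WT (SD, n = 3 each).

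The other genes of the HSP20 list, which takes in an SHSP domain name, had a different order of OX-labelled libraries from COCSUDRAFT_31935. Of 4 tested, 0 were called by edgeR, DESeq2 or limma-voom, with 1 lower at an unadjusted p under 0.05 in edgeR. Among all 8575 tested genes, 8.98% were called lower in edgeR and 1398 were lower at that unadjusted p. None was highest in OX replicate 2, as 31.9% of all tested genes were. All 4 had OX replicate 1 highest and OX replicate 3 lowest, an order not counted over all tested genes. COCSUDRAFT_52534, named Small molecular heat shock protein 10, was not in this list. It had OX replicate 2 highest and OX replicate 3 lowest, the order of COCSUDRAFT_31935. COCSUDRAFT_33636, also named HSP20-like, had 869, 679 and 151 CPM in the OX-labelled libraries, against 1198, 1050.2 and 1026 CPM in WT. It lay wholly below WT but did not pass (-0.95, SE 0.48, edgeR adjusted p = 0.176), and passed without OX replicate 3 (edgeR adjusted p = 0.0317, the lowest of 0.0317 to 0.322 over its 12 other settings). COCSUDRAFT_65198 had 546, 508 and 432 CPM in the OX-labelled libraries, against 624, 642 and 492 CPM in WT (edgeR adjusted p = 0.360). COCSUDRAFT_41760 had at most 0.506 CPM in any library, under the floor of 3 counts, and was not tested.

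The disaggregase COCSUDRAFT_53588 (ClpB) had 358, 672 and 274 CPM in the OX-labelled libraries, against 1223, 903 and 907 CPM in WT. It was called lower (-1.22, SE 0.29, edgeR adjusted p = 0.0107) and shared the order of OX-labelled libraries with COCSUDRAFT_67628 and COCSUDRAFT_31935. The call was lost without OX replicate 1 (edgeR adjusted p = 0.0586), with 0.000233 to 0.0586 over its 12 other settings. COCSUDRAFT_52534, named Small molecular heat shock protein 10, had 617, 833 and 379 CPM in the OX-labelled libraries, against 1576, 1390.4 and 1139 CPM in WT (-1.17, SE 0.26, edgeR adjusted p = 0.00768). COCSUDRAFT_19740, a fragment named Heat shock protein 33, after a bacterial chaperone switched on by oxidation, had a log2 difference of -0.97 (SE 0.19, edgeR adjusted p = 0.00406). COCSUDRAFT_12044, with the bare name Heat shock protein, had 556, 1429.9 and 525 CPM in the OX-labelled libraries, against 1888, 1273 and 1443 CPM in WT, and did not pass (edgeR adjusted p = 0.0838). It passed without OX replicate 2 (edgeR adjusted p = 0.00143, the lowest of 0.00143 to 0.261 over its 12 other settings). No listed gene carried a heat shock transcription factor name.

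**Figure D4:**
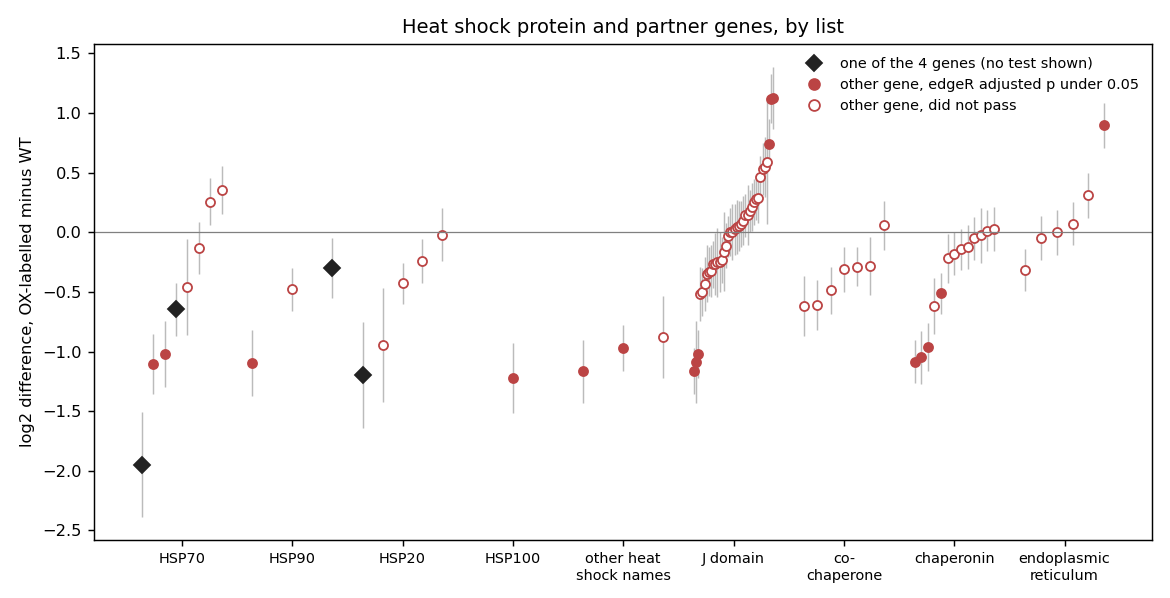
Log2 difference (OX-labelled minus WT, with SE as grey bars) of each tested gene of the heat shock families and of their partner lists, ordered by value within a list. The 4 genes are black diamonds; filled red circles passed the edgeR threshold and open circles did not, and in the 5 heat shock lists every filled circle lies below 0.

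The partner genes of HSP70 and HSP90 had a median log2 difference of -0.08, against 0.00 over all tested genes. Of 64 tested in 4 lists, 7 were lower, 4 higher and 53 did not pass, where 8.98% of all tested genes were lower, 15.6% higher and 6468 of 8575 did not pass. The share of lower calls was near that of all genes. Leaving out single libraries gave 11 lower calls without OX replicate 2, and higher calls of 2 without OX replicate 1, 8 without OX replicate 3 and 2 without WT replicate 2. Among 38 J domain genes, which deliver clients to HSP70, 3 were lower and 3 higher, near or below the shares of 8.98% and 15.6% over all tested genes. The lowest adjusted p among them was that of COCSUDRAFT_12080, a DnaJ domain fragment (-1.16, SE 0.19, edgeR adjusted p = 0.00141). Its call was kept in 6 of the 6 fits that leave out 1 library. COCSUDRAFT_54140, a DnaJ-like protein, had 209, 312 and 290.1 CPM in the OX-labelled libraries, against 611, 469 and 565 CPM in WT (-1.02, SE 0.20, edgeR adjusted p = 0.00414). COCSUDRAFT_40840, named DnaJ homolog subfamily C member 10, had 153, 230.4 and 153 CPM in the OX-labelled libraries, against 77.2, 89.3 and 79.9 CPM in WT, the other direction (1.12, SE 0.20, edgeR adjusted p = 0.00246). The DnaJ domain gene COCSUDRAFT_41254 was also called higher (1.13, SE 0.26, edgeR adjusted p = 0.0096), a call kept in 4 of the 6 fits that leave out 1 library.

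Of 7 co-chaperones, 0 passed in edgeR, DESeq2 or limma-voom, with 3 lower at an unadjusted p under 0.05 in edgeR. Over all tested genes 8.98% were called lower in edgeR, and 1398 of 8575 were lower at that unadjusted p. The STI1 domain gene COCSUDRAFT_29046, of the type that links HSP70 to HSP90, had 128, 205 and 102 CPM in the OX-labelled libraries, against 268, 219 and 181 CPM in WT (edgeR adjusted p = 0.0946, or 0.0127 without OX replicate 2, with 0.0127 to 0.274 over its 12 other settings). The Aha1 domain gene COCSUDRAFT_21985, of the type that stimulates the HSP90 ATPase, had 293, 300.4 and 229 CPM in the OX-labelled libraries, against 370.3, 365 and 285 CPM in WT (edgeR adjusted p = 0.247).

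Of 13 chaperonin genes, whose products fold proteins inside a ring, 4 were lower and 0 higher in edgeR, with 5 lower and 0 higher at an unadjusted p under 0.05 and by the DESeq2 Wald test. Over all tested genes 8.98% were called lower and 15.6% higher in edgeR. At an unadjusted p under 0.05 in edgeR, 1398 of 8575 were lower and 1852 higher. Mitochondrial chaperonin 60, COCSUDRAFT_36959, had 389.9, 674 and 414 CPM in the OX-labelled libraries, against 982, 964 and 1111 CPM in WT (-1.05, SE 0.22, edgeR adjusted p = 0.00598). Chaperonin 60B2, COCSUDRAFT_36901, had the lowest adjusted p of the list, at a log2 difference of -1.09 (SE 0.18, edgeR adjusted p = 0.00145). Chaperonin 60A, COCSUDRAFT_54483, had a log2 difference of -0.96 (SE 0.20, edgeR adjusted p = 0.00503). CCT-epsilon of the cytosolic ring, COCSUDRAFT_54294, had a log2 difference of -0.51 (SE 0.17, edgeR adjusted p = 0.0485), a call kept in 2 of the 6 fits that leave out 1 library, with 0.0290 to 0.139 over its 12 other settings. The other listed CCT or T-complex subunits of that ring did not pass. Their log2 differences ran from -0.22 (CCT-theta, COCSUDRAFT_52849) to 0.03 (CCT-alpha, COCSUDRAFT_28069). The 6 genes listed for the endoplasmic reticulum carry calreticulin, calnexin or disulfide isomerase names. Of these, 1 was called higher and 0 lower (15.6% and 8.98% over all tested genes). Calreticulin COCSUDRAFT_24759 was the gene called higher (0.90, SE 0.19, edgeR adjusted p = 0.00520). It had 209, 179 and 203 CPM in the OX-labelled libraries, against 86.5, 123 and 108 CPM in WT. COCSUDRAFT_17524, named Calreticulin/calnexin, lay wholly below WT but did not pass (-0.31, edgeR adjusted p = 0.211).

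The 4 genes lie on 4 different scaffolds of the RefSeq annotation. Of the 20 nearest tested genes, 3 were called higher and 0 lower around COCSUDRAFT_26106 (median log2 difference -0.06), and 1 and 0 around COCSUDRAFT_67628 (-0.05). The counts were 6 and 0 around COCSUDRAFT_54922 (0.44) and 4 and 1 around COCSUDRAFT_31935 (-0.10), where 15.6% of all tested genes were called higher and 8.98% lower. COCSUDRAFT_26106 is flanked by the flavoprotein gene COCSUDRAFT_45048, with 300.2 ± 73.9 CPM in the OX-labelled libraries and 267 ± 3.06 CPM in WT (SD, n = 3 each), and by the flavodoxin-like gene COCSUDRAFT_54807, and neither passed. The gene before COCSUDRAFT_67628, the purple acid phosphatase COCSUDRAFT_58128, was called higher, at 8.58 ± 4.61 CPM in the OX-labelled libraries and 1.78 ± 0.896 CPM in WT (SD, n = 3 each, edgeR adjusted p = 0.00984). COCSUDRAFT_54922 is followed by the uncharacterized gene COCSUDRAFT_83604, also called higher, at 188 ± 49.2 CPM in the OX-labelled libraries and 86.5 ± 4.24 CPM in WT (SD, n = 3 each, edgeR adjusted p = 0.00262). The uncharacterized genes on both sides of COCSUDRAFT_31935, COCSUDRAFT_64092 and COCSUDRAFT_38902, did not pass.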

How the data were processed

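RNA-seq libraries of 3 OX-labelled and 3 WT cultures were compared. Raw, unnormalized gene counts were deposited by the authors, made with tools that include HISAT, HTSeq, Trim Galore and FastQC per the submitters' processing notes. For versions, genome build, strand setting and reads matching several genes, nothing is stated (not given in the sources used here). Similar chaperone genes may have exchanged reads. The locus tags were matched to RefSeq assembly GCF_000258705.1 for gene order only (9490 of 9490 matched).

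Counts of 9490 genes went through filterByExpr, TMM scaling and the two-sided robust quasi-likelihood test of edgeR 4.0.16 (R 4.3.3). P-values were Benjamini-Hochberg adjusted over 8575 genes, with 0.05 as the limit. CPM values use the TMM factors. SE is the log2 difference over the square root of F. Log2 profiles used a prior count of 2. Chaperone lists came from patterns on product names. Genes to name were set by a rule. It took the 4 genes, the 5 nearest profiles of each, their flanking genes, and up to 4 called and 2 uncalled genes of each list. Not every uncalled or flanking gene under the rule is described. The genes and lists were chosen with earlier results of these data known. Alternatives were DESeq2 1.42.0, its size factors, library size only, no filter, limma-voom 3.58.1, the replicate number as a block and each library left out. The edgeR script was tested on simulated data. Counting intervals are 95% exact (Clopper-Pearson for shares, Poisson for counts) and cover counting error only.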

Additional observations from a re-analysis of the deposited data

How the results depend on the processing

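Without 1 library at a time, the calls over all genes ranged from 737 to 1627 higher and from 313 to 1232 lower, and those of the other heat shock family genes from 3 to 8 lower, with 0 higher. Partner genes ranged from 5 to 11 lower and from 2 to 8 higher. The log2 difference ranged from -2.78 to -1.60 for COCSUDRAFT_67628 and from -1.99 to -0.86 for COCSUDRAFT_31935, in both cases lowest without OX replicate 2 and highest without OX replicate 3. Under the other settings (scaling, filter, DESeq2, limma-voom and the block) every count here stayed within 1.5 times its value and the 4 genes kept their sign. Among the named list genes and the MADS-box gene, the fits without 1 library lost a call in 11 cases, gained one in 5 and left 164 as they were, and the other settings lost 1, gained 13 and left 166. The cause of the shifts was not tested, apart from the loss of 1 library.

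The replicate numbers do not pair the cultures by any label. Deviations from the group means correlated at -0.165, 0.153 and 0.063 for numbers 1, 2 and 3, with 2 of 6 libraries closest to their own number. With the replicate number as a block, 1297 genes were higher and 801 lower, 7 other heat shock family genes were lower, and the 4 genes had log2 differences of -0.69 (COCSUDRAFT_26106), -2.22 (COCSUDRAFT_67628), -0.36 (COCSUDRAFT_54922) and -1.42 (COCSUDRAFT_31935). Under it COCSUDRAFT_54294 did not pass (edgeR adjusted p = 0.0630), while COCSUDRAFT_12044 (0.0443), COCSUDRAFT_29046 (0.040) and COCSUDRAFT_66780 (0.0293) passed.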
